A study of Mus musculus with 6 samples.

Results

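The adrenomedullin, CGRP and S1P receptor axis was followed in dural lymphatic endothelial cells (LECs) through 9 genes chosen by name, out of 55401 listed. They were the receptor gene *Calcrl*, its partners *Ramp1*, *Ramp2* and *Ramp3*, the ligand gene *Adm*, the S1P receptor genes *S1pr1* and *S1pr3*, the S1P-forming enzyme *Sphk1* and the S1P exporter *Spns2*. All 9 passed the filter on low counts, which left 17459 genes tested. Both groups were wild-type male C57BL/6J mice that had received a single injection of adeno-associated virus of serotype 9 into the cisterna magna at 4 wk of age. The AAV-VEGF-C virus encoded full-length mouse VEGF-C, the growth factor that drives lymphatic growth through VEGFR-3. The AAV-CTRL virus encoded a VEGFR-3 ectodomain-Ig fusion that does not bind VEGF-C, so the controls also carried a vector. The promoter of the vectors and the time from injection to sorting are not given for these libraries in the sources used here. Each library pooled the meninges of 10 to 12 mice, from which live CD31+ podoplanin+ LYVE-1+ CD45- cells were sorted, and each group had 3 libraries from experiments numbered 1 to 3.

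The calcitonin receptor-like receptor, encoded by *Calcrl*, reaches the cell surface and binds its ligands only together with a receptor activity-modifying protein (RAMP). With the *Ramp1* product it forms the receptor for the neuropeptide CGRP, and with the *Ramp2* or *Ramp3* product it forms adrenomedullin receptors, which lymphatic vessels need for their growth and for the junctions between their cells. S1P is a lipid made inside cells by sphingosine kinases, exported from endothelium by Spns2 and sensed by G protein-coupled receptors, of which the *S1pr1* product steadies endothelial junctions. LECs are a main source of the S1P in lymph that guides lymphocytes.

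Totals ran from 6530269 to 12399498 estimated counts in AAV-CTRL, against 564475 to 3261935 in AAV-VEGF-C, so the members were read less precisely after VEGF-C. All 9 LEC markers, *Prox1* and *Lyve1* among them, were detected in each library, but so were blood endothelial, fibroblast and leukocyte markers. Summed fibroblast markers reached 934 to 1995 TPM (a level relative to all transcripts of the library, corrected for gene length) in AAV-CTRL, against 237 to 784 in AAV-VEGF-C, and summed LEC markers reached 517 to 614 against 167 to 350. Summed leukocyte markers stood at 71.4, 2476 and 1918 TPM in AAV-CTRL, against 12.9, 1262 and 845 in AAV-VEGF-C, in order of experiment number. The leukocyte sum was thus lowest in experiment 1 in both groups. Mural markers ran from 83.6 to 270 TPM against 11.9 to 78.9, with *Des* at 0 in AAV-VEGF-C 1. In CPM (counts relative to the library total after TMM scaling between libraries), the LEC sums overlapped, at 1590 to 2574 against 783 to 4189. The fibroblast sums overlapped in CPM too, at 8118 to 20125.5 against 5383 to 9313. The olfactory and vomeronasal receptor genes, 2001 in all and not expected in endothelium, summed to 136 to 308 CPM in AAV-CTRL, against 2728 to 9301 in AAV-VEGF-C. In such bulk libraries, fewer cells of a type and less RNA per cell cannot be told apart.

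None of the 9 members passed the test between AAV-VEGF-C and AAV-CTRL (adjusted p under 0.05, edgeR's quasi-likelihood test with Benjamini-Hochberg adjustment), where 11.2% of all genes tested did. Higher calls made up 10.5% of the genes tested and lower calls 0.659%. At an unadjusted p under 0.05 there was 1 member, *Ramp1*, beside 28.1% of all genes. DESeq2 also called 0 members, beside 21.3% of genes, and put 1 under that unadjusted level, beside 23.8%. The median log2 fold change of the members was 0.019, and that of all genes tested was -0.0037. Of the 9 fold changes, 5 lay above 0 and 4 below. The 1 member whose groups did not overlap upward in CPM was *Ramp1*, and the 1 that did not overlap downward was *S1pr3*, beside 22.3% and 17.6% of all genes tested. In TPM, 5 members were lower in AAV-VEGF-C without overlap, *Calcrl*, *Ramp2*, *Adm*, *S1pr1* and *S1pr3*, and 0 were higher, beside 36.4% and 12.8% of all genes. The count of lower members thus depended on the scale, and with TPM the median of all genes tested was itself lower in AAV-VEGF-C, by a log2 value of -0.72 with a pseudocount of 1.

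**Figure D1:**
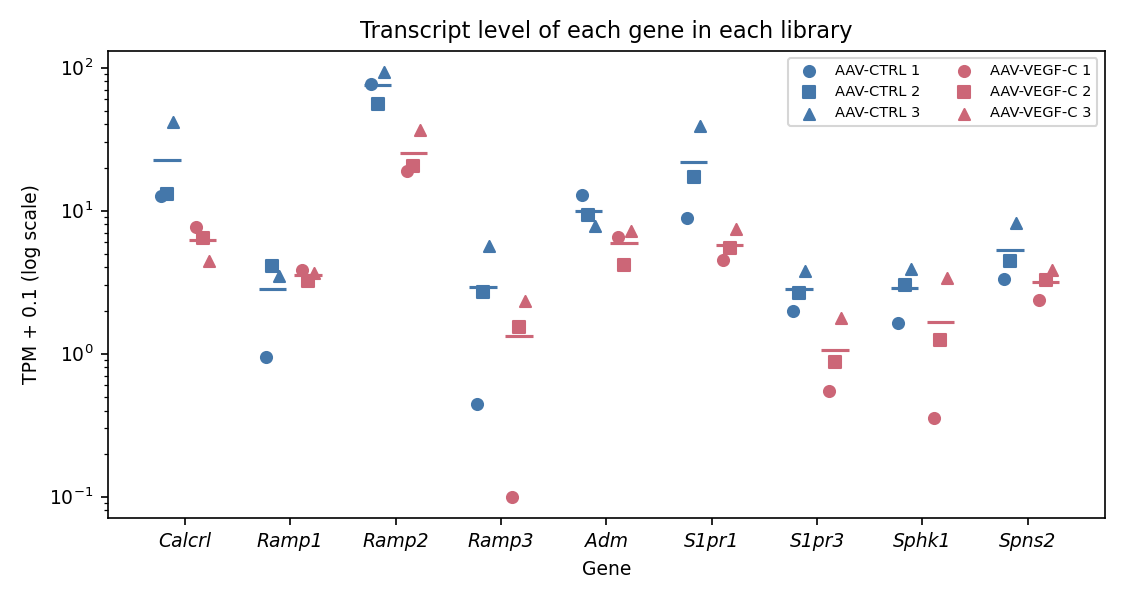
Level of each member in TPM on a log scale (vertical axis) by gene (horizontal axis), with 1 point per library and a bar for each group's mean. *Ramp2* stands highest in every library, at 55.9 to 93.1 in AAV-CTRL, against 18.9 to 36.7 in AAV-VEGF-C.

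The plot of levels shows the order of the members. *Ramp2* was the most abundant, at 75.3 ± 18.6 TPM in AAV-CTRL, against 25.3 ± 9.93 in AAV-VEGF-C (SD, n = 3 each, as for all values given with ± here), and its range did not meet that of *Calcrl* in either group. In AAV-CTRL, *Calcrl* (22.4 ± 16.8), *S1pr1* (21.6 ± 15.7), *Adm* (9.89 ± 2.56), *Spns2* (5.22 ± 2.60), *Ramp3* (2.84 ± 2.61), *Sphk1* (2.75 ± 1.16), *Ramp1* (2.75 ± 1.68) and *S1pr3* (2.71 ± 0.907) followed, and the ranges of neighbours in this order overlapped. In AAV-VEGF-C the order was *Ramp2*, *Calcrl* (6.08 ± 1.62), *Adm* (5.86 ± 1.57), *S1pr1* (5.68 ± 1.48), *Ramp1* (3.47 ± 0.323), *Spns2* (3.06 ± 0.749), *Sphk1* (1.55 ± 1.54), *Ramp3* (1.23 ± 1.14) and *S1pr3* (0.964 ± 0.631). There, besides *Ramp2* and *Calcrl*, *S1pr1* and *Ramp1* were the only neighbours whose ranges were apart.

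*Calcrl*, the receptor subunit that both ligand families share, lies at chr2:84330626-84425411 on the minus strand (GRCm38, GENCODE M21). Its level was 12.45, 12.99 and 41.8 TPM in AAV-CTRL 1, 2 and 3, against 7.55, 6.34 and 4.35 in AAV-VEGF-C 1, 2 and 3. In CPM it was 68.1, 65.4 and 109 in AAV-CTRL, against 120, 55.9 and 31.1 in AAV-VEGF-C. The groups were apart in TPM but overlapped in CPM, with AAV-VEGF-C 1 as the highest library and AAV-VEGF-C 3 as the lowest. Within experiments 1, 2 and 3, the log2 difference in CPM was 0.82, -0.22 and -1.79. The fitted log2 fold change was -0.27 with an SE of 0.50, smaller than the spread between experiments (edgeR, adjusted p = 0.768), and it came to 0.0049 without AAV-VEGF-C 3 and to -0.97 without AAV-VEGF-C 1. One CPM of *Calcrl* corresponded to 0.183 to 0.385 TPM in AAV-CTRL, against 0.0629 to 0.140 in AAV-VEGF-C.

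Of the RAMP genes, *Ramp1* (chr1:91179822-91225196, plus strand), the CGRP partner, came closest to a call. Its estimated counts were 16, 57 and 65 in AAV-CTRL, against 7, 16 and 35 in AAV-VEGF-C, or 2.57, 7.25 and 4.40 CPM against 16.2, 11.5 and 10.1. Every AAV-VEGF-C library lay above every AAV-CTRL library in CPM, and the log2 difference was 2.44, 0.63 and 1.11 in experiments 1, 2 and 3. The fitted log2 fold change of *Ramp1* was 1.34 with an SE of 0.51 (edgeR, adjusted p = 0.134), and the adjusted p ran from 0.0569 to 0.598 over 15 alternatives. In TPM its groups overlapped, at 0.843, 4.01 and 3.39 against 3.74, 3.11 and 3.55. Of the 8857 genes tested with a mean level of 0.5 to 5 TPM, as *Ramp1* has, the median log2 fold change was 0.33, with 931 called higher and 9 lower. The olfactory and vomeronasal receptor sum given above moved with the same groups, and its part in the *Ramp1* values was not tested.

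*Ramp2* (chr11:101246028-101259546, plus strand), the main adrenomedullin partner in endothelium, shares 1103 exon bases with *Vps25* on the same strand, and its estimated counts were not whole in 4 libraries, so its level is uncertain. It stood at 76.9, 55.9 and 93.1 TPM in AAV-CTRL, against 18.9, 20.2 and 36.7 in AAV-VEGF-C. In CPM it was 162, 102 and 98.2 against 104, 66.7 and 84.8, lower in 3 of 3 experiments but with overlapping groups. The fitted log2 fold change was -0.51 with an SE of 0.32 (edgeR, adjusted p = 0.335), -0.29 without AAV-CTRL 1 and -0.027 with scaling on the 2000 most abundant genes. *Ramp3* (chr11:6658521-6677475, plus strand), the other adrenomedullin partner, had 5, 42 and 101 estimated counts in AAV-CTRL, against 0, 7 and 21 in AAV-VEGF-C. The count of 0 in AAV-VEGF-C 1 allows up to 6.93 CPM (3 counts), a limit above its level in the control of the same experiment, 0.803 CPM, so no difference was detectable there. Its log2 fold change was 0.02 with an SE of 0.89 (edgeR, adjusted p = 0.995), with a sign that turned when single libraries were left out. Within experiments 1, 2 and 3 its log2 difference in CPM was -1.38, -0.083 and -0.17, below 0 where the fitted value was above it.

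**Figure D2:**
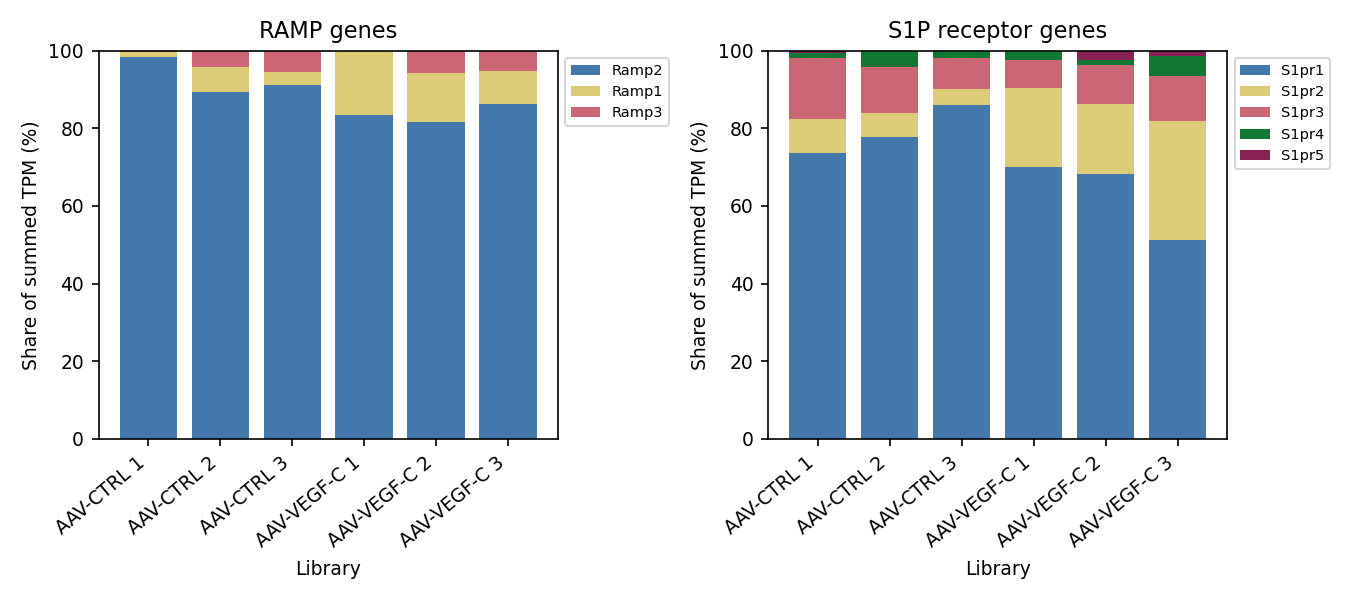
Share of the summed TPM (vertical axis, percent) of the 3 RAMP genes and of the 5 S1P receptor genes in each library (horizontal axis). *Ramp2* holds 89.4% to 98.5% of the RAMP sum in AAV-CTRL, against 81.6% to 86.4% in AAV-VEGF-C, and the *S1pr2* share is 3.96% to 8.64% against 18.1% to 30.6%.

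The makeup of the RAMP genes within a library does not depend on scaling between libraries, but it can move with a shift that differs by level. The median log2 fold change was 0.33 for genes at 0.5 to 5 TPM, as *Ramp1*, and -0.45 for those above 50 TPM, as *Ramp2*. The part of this shift in the shares was not tested. *Ramp2* held 98.5%, 89.4% and 91.2% of the summed RAMP TPM in AAV-CTRL, against 83.5%, 81.6% and 86.4% in AAV-VEGF-C. The means were 93.0% ± 4.80 and 83.8% ± 2.40, and every AAV-VEGF-C library was below every AAV-CTRL library. The difference of -9.20 percentage points had a two-sided exact permutation p of 0.1, the smallest that 3 libraries against 3 allow, and 0.3 after adjustment over the 3 ratios tested. Paired by experiment number, the exact permutation p was 0.25, the smallest that 3 pairs allow, so the pairing could not have given a lower value. The *Ramp1* share was 1.08%, 6.41% and 3.32% in AAV-CTRL, against 16.5%, 12.5% and 8.34% in AAV-VEGF-C, again without overlap, whereas the *Ramp3* share ran from 0.436% to 5.45% and from 0% to 5.83%. On counts, the *Ramp2* share was 98.0%, 89.0% and 89.7% against 86.5%, 80.2% and 84.0%. The ratio of *Calcrl* to *Ramp2* TPM was 0.162, 0.232 and 0.449 in AAV-CTRL, against 0.400, 0.313 and 0.118 in AAV-VEGF-C, an ordering that turned around between experiments 1 and 3. Its mean log2 difference was -0.051 (exact permutation p = 1).

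The sequences before the transcript start of *Calcrl*, the shared subunit, and of *Ramp1*, the member nearest to a call, are shown for the receptor that CGRP uses. They are the 250 bases upstream of each RefSeq start (GRCm38.p6), at chr2:84425267-84425516 on the minus strand and chr1:91179572-91179821 on the plus strand, with matches to an ETS-type core, CAGGAA or its reverse complement TTCCTG, in capitals.
Calcrl: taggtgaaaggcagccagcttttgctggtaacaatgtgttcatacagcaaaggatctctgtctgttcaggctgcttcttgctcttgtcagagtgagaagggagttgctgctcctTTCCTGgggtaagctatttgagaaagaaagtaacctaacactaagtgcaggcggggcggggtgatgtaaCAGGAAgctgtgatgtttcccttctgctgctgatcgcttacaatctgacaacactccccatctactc
Ramp1: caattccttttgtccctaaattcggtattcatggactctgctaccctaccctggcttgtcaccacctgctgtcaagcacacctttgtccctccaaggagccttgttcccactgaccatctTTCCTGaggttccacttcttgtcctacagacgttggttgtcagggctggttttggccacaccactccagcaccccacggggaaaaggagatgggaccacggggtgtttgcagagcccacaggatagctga
*Calcrl* had matches whose first bases lie at -136 and -67 from the RefSeq start, and *Ramp1* had 1 at -130. In GENCODE M21 the *Calcrl* gene, on the minus strand, reaches to 84425411, so its start there lies within the stretch shown. Both *Calcrl* matches are inside the gene by that annotation. Of the 7 members with an entry these were the 2 with a match, and 25.7% of 32851 promoters of the same length hold one. The match is a description of the letters, and no site was measured here.

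*Adm* (chr7:110627661-110629820, plus strand) encodes adrenomedullin, the ligand for *Calcrl* with *Ramp2* or *Ramp3*. It stood at 12.7, 9.25 and 7.71 TPM in AAV-CTRL, against 6.43, 4.09 and 7.07 in AAV-VEGF-C. In CPM it was 29.7, 18.7 and 10.3 against 48.5, 14.3 and 15.2, with overlapping groups and AAV-VEGF-C 1 highest. The log2 fold change was 0.29 with an SE of 0.59 (edgeR, adjusted p = 0.795), and it changed sign, to -0.15 without AAV-CTRL 3 and to -0.44 without AAV-VEGF-C 1. The CGRP gene *Calca*, with 10 to 38 estimated counts in AAV-CTRL, against 2 to 8 in AAV-VEGF-C, had a log2 fold change of 0.13 (edgeR, adjusted p = 0.997). *Adm2*, *Calcb*, *Iapp* and the calcitonin receptor gene *Calcr* had at most 8 counts in any library and did not pass the filter on low counts. *Calcr*, with 0, 2 and 1 counts in AAV-CTRL, against 4, 2 and 5 in AAV-VEGF-C, was called higher by DESeq2 (adjusted p = 0.00960) and by edgeR with no filter (adjusted p = 0.0249). *Adm2*, with 0, 0 and 1 counts against 0, 3 and 8, was called higher by edgeR with no filter (adjusted p = 0.0210). Both calls rest on these few counts. *Ackr3*, which encodes a scavenger of adrenomedullin, had a log2 fold change of -0.18 (edgeR, adjusted p = 0.856). *Mme*, which encodes a peptidase that degrades such peptides, had 0.03 (edgeR, adjusted p = 0.980), and *Crcp*, which encodes a component of the CGRP receptor complex, had -0.59 (edgeR, adjusted p = 0.464).

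*Pam* encodes the enzyme that amidates the ends of adrenomedullin and CGRP, the step that makes them active. It stood at 166, 67.8 and 149 TPM in AAV-CTRL, against 20.99, 33.2 and 48.1 in AAV-VEGF-C. Every AAV-VEGF-C library was below every control in both TPM and CPM, as for 36.4% and 17.6% of all genes tested. The log2 fold change of *Pam* was -1.30 with an SE of 0.39 (edgeR, adjusted p = 0.0724). With the experiment number as a block it was -1.21 and passed (edgeR, adjusted p = 0.0430). The median was -0.45 for genes tested above 50 TPM, as *Pam*. The fibroblast marker sum given above was lower in the same libraries in TPM, and 2 of its 6 genes, *Dcn* and *Ogn*, were called lower. In CPM that sum overlapped, at 20125.5, 8118 and 8466 in AAV-CTRL, against 7124, 5383 and 9313 in AAV-VEGF-C. The part of the fibroblast genes in the *Pam* values was not tested.

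**Figure D3:**
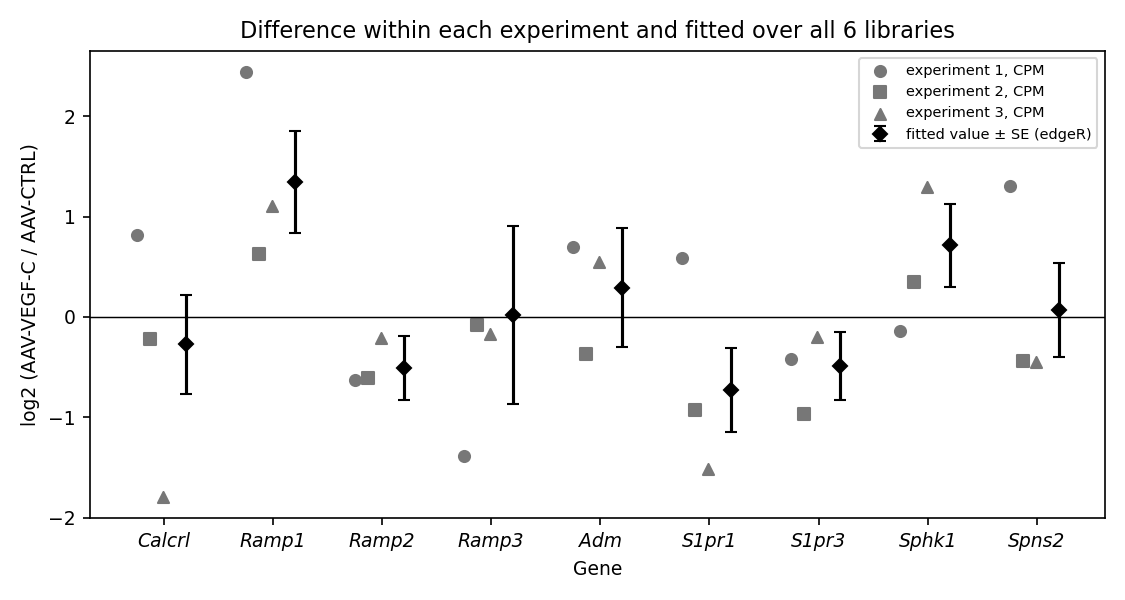
Log2 of AAV-VEGF-C over AAV-CTRL (vertical axis) for each member (horizontal axis), with small points for CPM within experiments 1, 2 and 3 (0.5 added to each value) and a large point for the fitted log2 fold change with its SE. *Ramp1* is above 0 in 3 of 3 experiments and *Ramp2*, *Ramp3* and *S1pr3* are below 0 in 3 of 3. The *Ramp3* point of experiment 1 rests on a count of 0 in AAV-VEGF-C, and that of *Sphk1* on a count of 3.

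The plot of differences by experiment shows how far the members varied among themselves. In CPM, *Calcrl*, *S1pr1* and *Spns2* were higher in AAV-VEGF-C in experiment 1 and lower in experiments 2 and 3, and *Adm* was lower only in experiment 2. *Sphk1* was lower only in experiment 1, where its AAV-VEGF-C value rests on 3 counts and shows no direction. In TPM all of these genes were lower in each experiment. *S1pr1* (chr3:115710433-115715072, minus strand), the main S1P receptor gene here, stood at 8.74, 16.9 and 39.1 TPM in AAV-CTRL, against 4.41, 5.33 and 7.30 in AAV-VEGF-C. In CPM it was 46.1, 78.2 and 125 against 69.3, 40.9 and 43.4. The groups did not overlap in TPM and did overlap in CPM, since AAV-VEGF-C 1 was above AAV-CTRL 1 by a log2 difference of 0.58. The fitted log2 fold change was -0.73 with an SE of 0.42 (edgeR, adjusted p = 0.299) and -0.43 without AAV-CTRL 3. Over 17 alternatives it ran from -1.68 to -0.26, below 0 in each.

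*S1pr3* (chr13:51408639-51422797, plus strand), which encodes an S1P receptor that couples to a wider set of G proteins, was lower in 3 of 3 experiments. It stood at 1.87, 2.57 and 3.67 TPM in AAV-CTRL, against 0.451, 0.773 and 1.67 in AAV-VEGF-C, and at 15.6, 18.7 and 17.9 against 11.6, 9.32 and 15.5 CPM. The groups did not overlap on either scale, although in CPM the lowest control and the highest AAV-VEGF-C library, at 15.58 and 15.53, were almost level. The counts behind the AAV-VEGF-C values were 5, 13 and 54. Its log2 fold change was -0.49 with an SE of 0.34 (edgeR, adjusted p = 0.383), -0.89 without AAV-VEGF-C 3 and -0.023 with scaling on the 2000 most abundant genes. The mural marker sum, at 83.6, 110 and 270 TPM in AAV-CTRL, against 11.9, 31.4 and 78.9 in AAV-VEGF-C, did not overlap in TPM, as for 36.4% of all genes, but overlapped in CPM, at 742, 630 and 1038 against 309.6, 358 and 644. Of its 7 genes, 0 were called, and its part in the *S1pr3* values was not tested. The ratio of *S1pr1* to *S1pr3* TPM was 4.67, 6.58 and 10.6 in AAV-CTRL, against 9.77, 6.90 and 4.38 in AAV-VEGF-C, with a mean log2 difference of -0.16 (exact permutation p = 0.7, adjusted p = 1).

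*S1pr2*, which encodes an S1P receptor that acts against S1pr1 in endothelial junctions, was the only S1P receptor gene at an unadjusted p under 0.05. It had 11.7, 12.6 and 11.6 CPM in AAV-CTRL, against 34.7, 18.6 and 16.1 in AAV-VEGF-C. The groups did not overlap, as for 22.3% of all genes tested in this direction. The estimated counts of *S1pr2* were 73, 99 and 172 against 15, 26 and 56. Its log2 fold change was 0.87 with an SE of 0.37 (edgeR, adjusted p = 0.176), and in TPM its groups overlapped. As the plot of shares shows, its part of the summed TPM of the 5 S1P receptor genes was 8.64%, 6.37% and 3.96% in AAV-CTRL, against 20.4%, 18.1% and 30.6% in AAV-VEGF-C. On counts, which do not depend on the length used for TPM, the share of *S1pr2* was 15.7%, 11.1% and 7.40% against 29.4%, 26.3% and 20.1%. *S1pr1* held 73.7%, 77.7% and 86.1% of the summed TPM against 70.1%, 68.2% and 51.3%. The median log2 fold change was 0.33 for genes at 0.5 to 5 TPM, as *S1pr2*, with 931 called higher and 9 lower. For genes at 5 to 50 TPM, as *S1pr1*, it was -0.41. The part of this shift with level, and of the olfactory and vomeronasal receptor sum, in the *S1pr2* values and shares was not tested. *S1pr4*, a receptor gene of leukocytes, had a log2 fold change of 0.20 (edgeR, adjusted p = 0.914), and *S1pr5* had at most 4 counts in a library and did not pass the filter.

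*Sphk1* (chr11:116530925-116536674, plus strand), which encodes one of the kinases that form S1P, had 7.71, 7.76 and 6.64 CPM in AAV-CTRL, against 6.93, 10.0 and 16.97 in AAV-VEGF-C. The AAV-VEGF-C values rest on 3, 14 and 59 counts, so that of AAV-VEGF-C 1 lies at the floor of 3 counts. Only AAV-VEGF-C 3 stood well away from the controls, and in TPM (1.53, 2.90 and 3.83 against 0.257, 1.15 and 3.26) the groups overlapped. The log2 fold change was 0.72 with an SE of 0.41 (edgeR, adjusted p = 0.300) and 0.14 without AAV-VEGF-C 3. *Spns2* (chr11:72451638-72489904, minus strand), which encodes the exporter, had 10.9, 15.8 and 26.9 CPM in AAV-CTRL, against 27.7, 11.5 and 19.6 in AAV-VEGF-C. Its TPM was 3.20, 4.31 and 8.15 against 2.26, 3.15 and 3.75, and the groups overlapped on both scales. The log2 fold change was 0.07 with an SE of 0.47 (edgeR, adjusted p = 0.950). *Sphk1* and *Spns2* overlap exons of other genes, *Gm29292* by 192 bases and *Mybbp1a* by 131, on the opposite strand. *Ramp3* and *S1pr3* overlap *Gm11978* by 101 and *Gm32834* by 45 bases. The use of strand in counting is not given in the sources used here, so these reads cannot be told apart.

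A wider list of 47 genes around the axis held 41 that were tested, of which 0 were called higher and 0 lower (edgeR), with 10 at an unadjusted p under 0.05, beside 28.1% of all genes tested. Its median log2 fold change was -0.34, beside -0.0037 for all genes tested and -0.41 for those at 5 to 50 TPM. With DESeq2, *Calcr* was called higher and 3 genes (*Pam*, *Plpp3* and *Smpd1*) lower, beside 19.5% and 1.74% of all genes. With no filter, 3 (*Adm2*, *Calcr* and *Rapgef3*) were called higher and 6 (*Gnai3*, *Gnas*, *Pam*, *Plpp3*, *Prkaca* and *Smpd1*) lower, beside 21.1% and 2.64%. The experiment number as a block gave 2 lower calls, *Pam* and *Plpp3*, beside 2.07%. A single lower call (1 gene) came from limma on log2(TPM + 1), beside 2.49%, and on log2(TPM + 0.1), beside 0.934%, where it was *Adcy6*, and from voom, beside 1.53%, where it was *Plpp3*. Within S1P synthesis, transport and breakdown, 8 of 9 genes were tested, 0 passed and the median was -0.24. The lipid phosphatase gene *Plpp3*, whose product removes extracellular S1P, stood at 189, 120 and 239 TPM in AAV-CTRL, against 22.0, 38.7 and 61.8 in AAV-VEGF-C. Its log2 fold change was -1.17 with an SE of 0.34 (edgeR, adjusted p = 0.0684), and -1.13 with the experiment as a block, which passed (edgeR, adjusted p = 0.0416). For genes tested above 50 TPM, as *Plpp3*, the median was -0.45. The fibroblast marker sum moved in the same direction in TPM but overlapped between the groups in CPM, and its part in the *Plpp3* values was not tested. *Mfsd2b*, an S1P exporter gene of red blood cells and platelets, had 14, 8 and 16 estimated counts in the controls and 3, 3 and 30 after VEGF-C, and its log2 fold change was 2.04 (edgeR, adjusted p = 0.107).

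The other genes of S1P turnover lay nearer to 0. *Sphk2*, the other kinase gene, had a log2 fold change of -0.01 (edgeR, adjusted p = 0.989), and *Sgpl1*, the gene of the lyase that ends S1P, had -0.03 (edgeR, adjusted p = 0.986). The S1P phosphatase genes *Sgpp1* and *Sgpp2* had -0.45 and -0.54 (edgeR, adjusted p = 0.487 and 0.675). *Plpp1* had -0.89 (edgeR, adjusted p = 0.199) and *Plpp2* 0.45 (edgeR, adjusted p = 0.653). *Apom*, whose product carries S1P in blood, did not pass the filter on low counts. Of the 8 genes that supply ceramide and sphingosine, 0 passed, 0 had a positive fold change and the median was -0.58. Most of these lay at a mean of 5 to 50 TPM, where the median of all genes tested was itself -0.41. Of the 18 signal transducers 0 passed, with a median of -0.31.

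**Figure D4:**
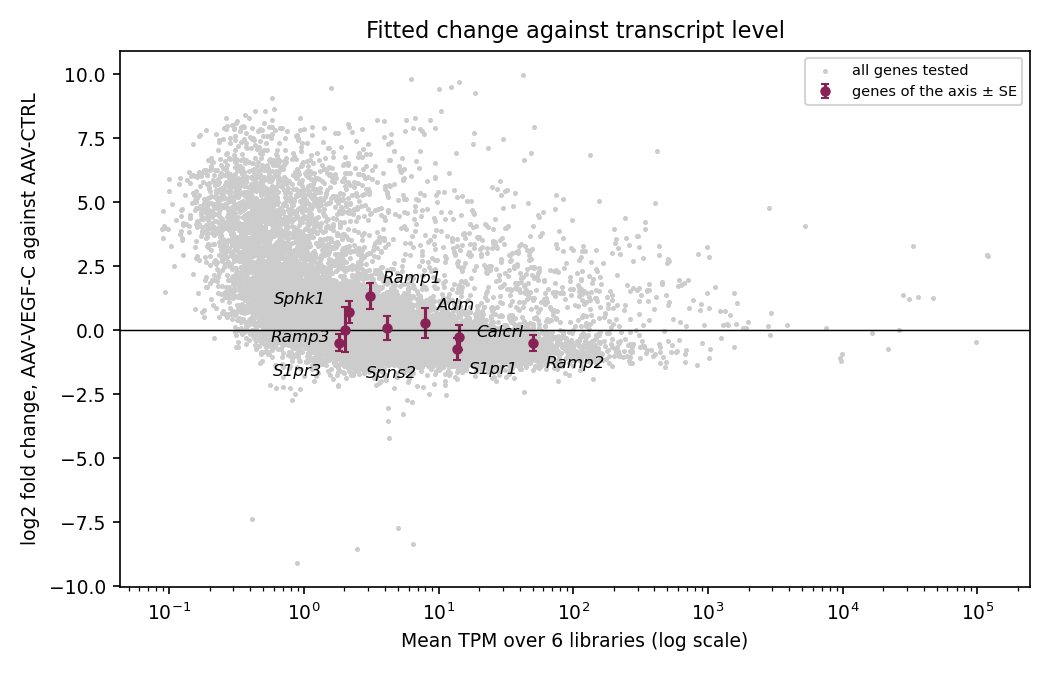
Log2 fold change (vertical axis) against mean TPM on a log scale (horizontal axis) for all genes tested (grey) and the 9 members (labelled). The median change is 0.33 for the 8857 genes at 0.5 to 5 TPM and -0.41 for the 6532 genes at 5 to 50 TPM.

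The plot of change against level sets the members beside genes of like abundance. *Ramp1*, *Ramp3*, *S1pr3*, *Sphk1* and *Spns2* had a mean of 0.5 to 5 TPM, where the median was 0.33. *Calcrl*, *Adm* and *S1pr1* had 5 to 50 TPM, where the median was -0.41, with 103 genes called higher and 93 lower. *Ramp2* lay above 50 TPM, where the median of 702 genes was -0.45. The fold changes of *Ramp2*, *Calcrl*, *S1pr1*, *Ramp3*, *Sphk1* and *Spns2* were thus within 1 SE of the median of their level. *Ramp1*, at 1.34, and *Adm*, at 0.29, lay above the median of theirs by more than 1 SE, and *S1pr3*, at -0.49, lay below it by more than 1 SE.

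**Figure D5:**
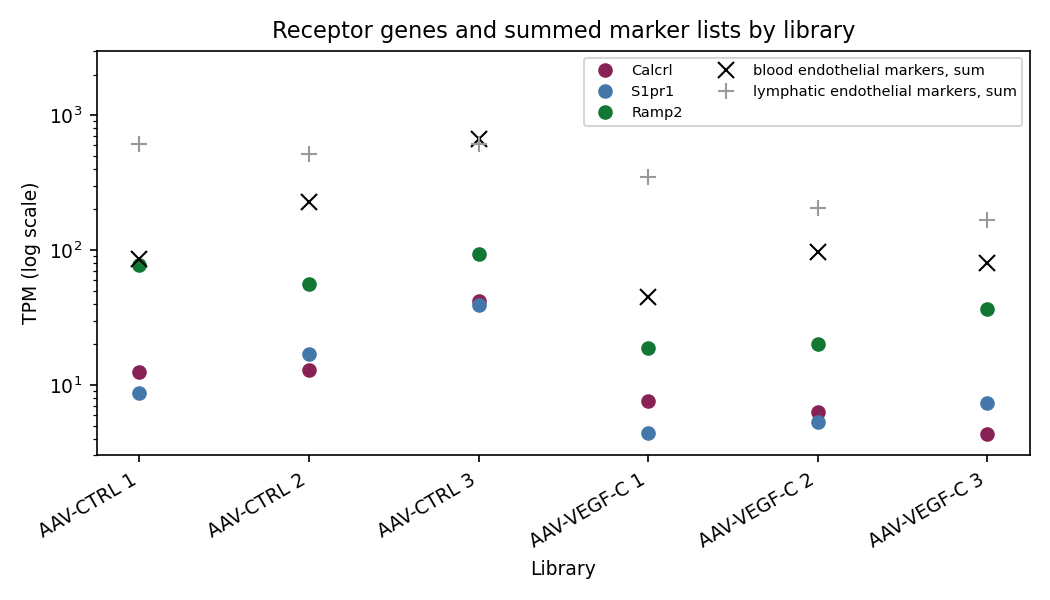
TPM on a log scale (vertical axis) of *Calcrl*, *S1pr1* and *Ramp2* and of the summed LEC and blood endothelial marker lists in each library (horizontal axis). *Calcrl*, *S1pr1* and the blood endothelial sum are highest in AAV-CTRL 3, where that sum reaches 668, and the LEC sum is lowest in AAV-VEGF-C 3.

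*Calcrl* and *S1pr1* are also expressed by blood endothelium, whose markers were therefore read in the same libraries. The 6 blood endothelial genes summed to 86.1, 227 and 668 TPM in AAV-CTRL, against 44.7, 97.3 and 80.6 in AAV-VEGF-C, and none of them was called. The plot of marker sums shows that *Calcrl*, *S1pr1* and the blood endothelial sum all had their highest TPM in AAV-CTRL 3. In CPM the blood endothelial sums were 340, 1335 and 2830 in AAV-CTRL, against 615, 936 and 569 in AAV-VEGF-C. On that scale *S1pr1* was also highest in AAV-CTRL 3, but *Calcrl* was highest in AAV-VEGF-C 1, at 120 against 109 in AAV-CTRL 3. *Flt1*, a defining blood endothelial gene, ran from 1.52 to 106 TPM in AAV-CTRL, against 3.97 to 16.8 in AAV-VEGF-C. The 9 LEC markers, with 0 called, summed to 614, 517 and 612 TPM against 350, 207 and 167. In CPM their sums overlapped, at 2574, 1756 and 1590 against 4189, 1282 and 783, with AAV-VEGF-C 1 highest. This list includes *Pecam1* and *Cdh5*, which blood endothelium shares, so its sum does not measure lymphatic cells alone. In AAV-CTRL 1, 2 and 3, *Pecam1* stood at 20.9, 46.1 and 121 TPM and *Cdh5* at 39.5, 56.2 and 106. The part of the blood endothelial genes in the *Calcrl* and *S1pr1* values was not tested.

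Dividing by the TPM of *Cdh5*, the endothelial cadherin gene shared by lymphatic and blood vessels, was chosen after the data were seen and carries no test. Per unit of *Cdh5*, *Calcrl* was 0.315, 0.231 and 0.395 in AAV-CTRL, against 0.537, 0.303 and 0.248 in AAV-VEGF-C. *S1pr1* was 0.221, 0.301 and 0.369 against 0.313, 0.255 and 0.416, so the groups of both receptor genes overlapped on this scale. *Ramp1* (0.0213, 0.0713 and 0.0320 against 0.266, 0.149 and 0.202) and *Spns2* (0.0810, 0.0767 and 0.0769 against 0.161, 0.151 and 0.214) were higher without overlap, beside 31.9% of all genes tested.

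The genes whose centred log2(TPM + 1) profile over the 6 libraries lay nearest to that of *Calcrl*, at a mean TPM no lower than 5, were *Atrx*, *Ldb2*, *Hnrnpr*, *4833420G17Rik* and *Gimap4*, at a root mean square difference of 0.24 to 0.27. Those nearest to *S1pr1* were *Rpl11*, *Lrg1*, *Eng*, *Rasd1* and *Ceacam1*, at 0.10 to 0.20. These are descriptions over 6 libraries that share depth and cell makeup.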

How the data were processed

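Bulk RNA-seq of sorted dural LECs was analysed, with 3 libraries per group as the labels give them. Stranded total RNA libraries for low input were sequenced, and the authors deposited estimated counts for each gene, unscaled, and TPM values, which adjust for gene length and total. The submitters' processing notes name mm10, DRAGEN, Trimmomatic, FastQC and Picard without roles, and the counting program is not given in the sources used here. GENCODE M21 (GRCm38) gave positions, and 98.1% of identifiers equal its own. Both tables list 55401 genes, and every row named a gene.

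Counts were rounded, filtered with filterByExpr and scaled with TMM. The groups were compared in edgeR 4.0.16 (R 4.3.3) with its quasi-likelihood test, Benjamini-Hochberg adjustment over all 17459 genes tested and a threshold of 0.05. The fit was also run on simulated counts with changes of equal size set in both directions. These held no shift with level like that in the data, so the run does not show how the fit behaves under it. The SE is the fold change divided by the square root of F. The study used DESeq2, run here as an alternative (1.42.0). Other alternatives were scaling, filters, limma 3.58.1 on log2(TPM + 1) and log2(TPM + 0.1), voom, a replicate block, counts drawn down to the smallest total and leaving out each library. Two-sided exact permutation tests were used for ratios within libraries, with 0.1 added to each TPM in log2 ratios. Promoter sequences are from RefSeq (GRCm38.p6), with entries for 7 of the 9 members.

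The named genes are the 9 members, the receptor, ligand and S1P turnover genes of the wider list, any other gene of that list with an adjusted p under 0.05 (in the edgeR fit above or an alternative), the 5 nearest profiles of *Calcrl* and *S1pr1*, and markers on which a result turns. The members and lists were chosen with earlier results of these data known. Libraries with the same number deviated together from the mean of their group, with correlations over genes of 0.369, 0.280 and 0.155 for numbers 1, 2 and 3. Between different numbers the highest value was 0.216, for AAV-CTRL 3 with AAV-VEGF-C 2. Since the labels tie numbers to experiments, the numbers were taken to pair the libraries. The main fit and the main ratio tests did not use this pairing, which only the replicate block did. Each library is a pool of mice, and the p-values measure the spread between pools. Low genes are limited most by depth, with totals of 564475 to 12399498, and the floor of 3 counts covers counting error only.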

Additional observations from a re-analysis of the deposited data

How the results depend on the processing

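None of the 9 members was called under 17 alternatives, but 3 of these called 0 genes of all tested (counts drawn down, without AAV-CTRL 2 and without AAV-CTRL 3), the filter on mean TPM left 9 called genes and leaving out AAV-VEGF-C 2 left 8, so no member could readily have been called there. The sign did not turn for *Ramp1* (0.38 to 1.80), *Ramp2* (-1.61 to -0.027), *S1pr1* (-1.68 to -0.26) and *S1pr3* (-1.52 to -0.023), with the values of *Ramp2* and *S1pr3* nearest to 0 from scaling on the 2000 most abundant genes. The *Ramp2* share of RAMP TPM ran from -11.0 to -6.48 percentage points over 8 alternatives. The others turned in places, and the cause was not tested. Log2 fold changes became -0.082 for *Ramp3* and -0.11 for *Spns2* with library size alone, and 0.21 for *Calcrl* with scaling on the 2000 most abundant genes. They became -0.21 for *Ramp3*, -0.0027 for *Adm* and -0.21 for *Spns2* with no filter, 0.15 for *Calcrl* with a mean TPM of at least 5, -0.14 for *Ramp3* with DESeq2 and -0.078 for *Adm* with voom. With limma on log2(TPM + 1) they were -0.67 for *Ramp3*, -0.67 for *Adm*, -0.68 for *Sphk1* and -0.56 for *Spns2*, and with log2(TPM + 0.1) they were -1.41, -0.75, -1.23 and -0.67. The replicate block gave -0.25 for *Ramp3* and changed no member's call. Counts drawn down to the smallest total gave 0.29 for *Calcrl* and -0.095 for *Spns2*, where 6 members could be tested (4 in the setting on mean TPM). The log2 ratio of *Calcrl* to *Ramp2* became 0.082 on counts and 0.041 with a pseudocount of 1.

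Leaving out each library in turn gave -0.97 to 0.0049 for *Calcrl*, -0.57 to 0.44 for *Ramp3*, -0.44 to 0.66 for *Adm* and -0.26 to 0.38 for *Spns2*. *Ramp3* was below 0 without AAV-CTRL 1, AAV-VEGF-C 2 or AAV-VEGF-C 3, and *Spns2* without AAV-CTRL 1, AAV-CTRL 2, AAV-VEGF-C 1 or AAV-VEGF-C 3. The log2 differences ran from -0.45 to 0.16 for the ratio of *S1pr1* to *S1pr3*, above 0 without AAV-CTRL 3 or AAV-VEGF-C 3, and from -0.40 to 0.47 for that of *Calcrl* to *Ramp2*, above 0 without the same libraries. In the wider list, calls were 3 higher and 6 lower with no filter, 1 higher and 3 lower with DESeq2, and lower for 1 gene with limma on log2(TPM + 1), 1 with log2(TPM + 0.1), 1 with voom and 2 with the replicate block. The median of all genes tested was 0.45 with scaling on the 2000 most abundant genes. Depth limits the low members most. In AAV-VEGF-C, *Ramp3* rests on 0 to 21 counts, *Sphk1* on 3 to 59, *S1pr3* on 5 to 54 and *Ramp1* on 7 to 35.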
